A study of Mus musculus with 6 samples.

Results

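The extracellular matrix genes were collagens, laminins, fibrillins and named partners such as elastin, fibronectin and perlecan, the class of genes for which the miR-29 family of microRNAs is best known as a repressor. The rule that chose them used symbols and no measured value. It took a Col symbol with its chain number, a numbered Lama, Lamb, Lamc or Fbn symbol, or 1 of a list of named genes, among the protein-coding rows of the table. It found 61 genes among 8439 protein-coding rows and 10065 rows in all. The reference annotation holds 74 protein-coding genes with such symbols, so 82.4% of them had a row and 13 did not. Of the 61 genes, 38 encode collagen chains.

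The libraries were small RNA libraries of whole hearts of mice at postnatal day 6, from 3 ADAR2 knockout animals (Adarb1-/-, Gria2R/R) and 3 wild-type animals. ADAR2, encoded by Adarb1, converts adenosine to inosine in double-stranded RNA. All animals were female, on an SV129 background and siblings from an intercross. By the methods, both groups carry the Gria2 gene in its pre-edited form, which rescues the early lethality of ADAR2 loss, whereas the genotype label names it for the knockout animals only. The deposited table gives 1 mean normalized count per gene and no value for any animal. Its other measures are the authors' own comparison of the genotypes, which was not used here. Whether fragments of the matrix genes were higher in the knockout hearts was therefore not tested, and the values below do not separate the genotypes. The methods give only a minimum number of reads per sample. The error of each mean, the exact depth of each library and the spread between animals are unknown. For the same reason the deleted gene could not be checked animal by animal, and Adarb1 had a mean normalized count of 16.6. In whole hearts, fewer cells of a type and less RNA per cell cannot be told apart.

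Fibrillar collagens such as types I and III form the fibres that carry tension in the heart wall, while type IV collagen, laminins, nidogens and perlecan form the basement membrane around cardiomyocytes and vessels. Cardiac fibroblasts make most of the fibrillar matrix. MicroRNAs of the miR-29 family pair through their seed with the 3′ UTR of many collagen transcripts and lower their output, and loss of miR-29 is known to accompany fibrosis. The seed is the stretch of bases 2 to 8 of the mature microRNA.

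The 3′ arms of the miR-29 family are shown because all share the same seed, which is set in capitals (mature sequences from RefSeq, GRCm38.p6).
miR-29a-3p: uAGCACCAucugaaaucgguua
miR-29b-3p: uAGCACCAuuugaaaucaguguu
miR-29c-3p: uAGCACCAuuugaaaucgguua
These sequences are 22, 23 and 22 bases long. Mature miR-29b-3p is made from 2 genes, Mir29b-1 on chromosome 6 and Mir29b-2 on chromosome 1. Only Mir29b-1 had a row in the table, with a mean normalized count of 4.80 by the authors' table. This is a low value, below the median of 6.77 over all protein-coding rows. Mir29a, Mir29b-2 and Mir29c had no row among those analysed here, and a missing row does not show that a microRNA was absent.

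The site that pairs with this seed reads TGGTGCT in the transcript. It was searched on the transcript's own strand in the longest annotated 3′ UTR of each gene. Of the 61 matrix genes 30 (49.2%) held at least 1 such match, and 1420 of the 8282 protein-coding rows with an annotated 3′ UTR (17.1%) did. More than 1 match was held by 13 matrix genes (21.3%), against 3.04% of all protein-coding rows, and 3 or more by 5 matrix genes (8.20%), against 0.604%. The matrix genes did not have longer 3′ UTRs, with a median of 1016 bases against 1430.5 bases. Per kilobase of 3′ UTR they held 0.629 matches and all protein-coding rows 0.110. The difference was present at each length of UTR. Under 1000 bases, 10 of 30 matrix genes (33.3%) and 5.11% of all rows held a match. From 1000 to 2000 bases a match was held by 12 of 20 matrix genes (60.0%) and by 303 of 2170 rows. From 2000 bases the shares were 72.7% of 11 genes and 31.8%. Genes of 1 family share ancestry and sequence, so these shares are descriptions without a test. The class was also picked for its known link to miR-29, so its higher share of matches is no independent result.

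**Figure D1:**
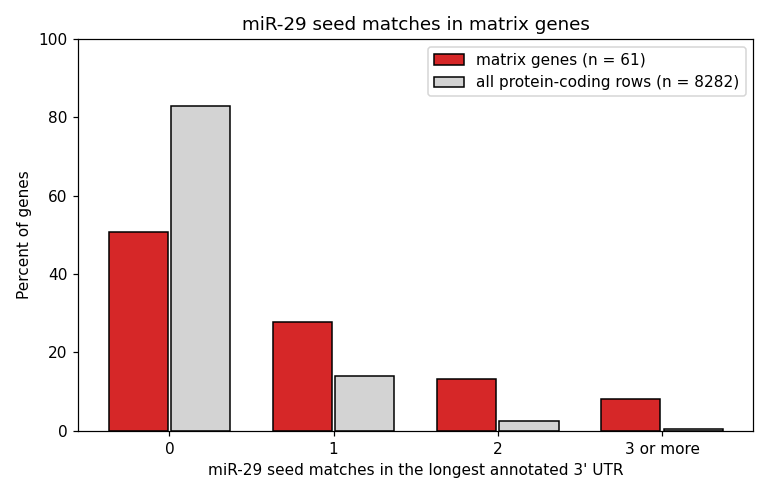
Percent of genes (vertical axis) with 0, 1, 2, or 3 or more matches to the miR-29 seed in the longest annotated 3′ UTR (horizontal axis), for the 61 matrix genes (red bars) and all 8282 protein-coding rows with an annotated 3′ UTR (grey bars). No match was found in 50.8% of the matrix genes and in 82.9% of all rows, and the red bars stand above the grey bars for 1 match and for every higher number.

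The matches lay mainly in collagens. Fibrillar and basement membrane collagens held 26 of the 51 matches of the matrix genes, and 15 of these 18 collagen genes had at least 1. Only 1 of 10 laminin genes, Lamc1, had a match, and 8 of the 10 laminin genes have an annotated 3′ UTR under 400 bases. Fn1, Postn and Sparc had none. The sites of 9 genes are shown with the 14 bases before the match and 1 base after it. Col1a1, Col3a1, Col4a1 and Col4a2 are major chains of the fibrillar and basement membrane collagens, while Col5a1, Col26a1, Col4a3, Col4a5 and Eln are the genes with 3 or more matches. Capitals mark the match. Coordinates are those of the annotation (GRCm38), and each site lies in an exon, in the 3′ UTR.
Col1a1, chr11:94952524-94952545, plus strand: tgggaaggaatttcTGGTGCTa
Col3a1, chr1:45348968-45348989, plus strand: tcaaaatgtctcaaTGGTGCTa
Col4a1, chr8:11199761-11199782, minus strand: ccaccgtcacaacaTGGTGCTa
Col4a2, chr8:11448345-11448366, plus strand: tgggaaggccacgtTGGTGCTt
Col4a2, chr8:11448516-11448537, plus strand: caccacacccagctTGGTGCTt
Col5a1, chr2:28037990-28038011, plus strand: taactatgaacattTGGTGCTg
Col5a1, chr2:28038020-28038041, plus strand: acacttgtctcttgTGGTGCTa
Col5a1, chr2:28038336-28038357, plus strand: ttgctgaatgtttgTGGTGCTa
Col5a1, chr2:28038708-28038729, plus strand: acagagagtcactcTGGTGCTt
Col26a1, chr5:136742903-136742924, minus strand: tccctggggagagaTGGTGCTt
Col26a1, chr5:136742024-136742045, minus strand: aaggcttctctggcTGGTGCTt
Col26a1, chr5:136741988-136742009, minus strand: ccctccccccatccTGGTGCTc
Col26a1, chr5:136741883-136741904, minus strand: atccctaaagttctTGGTGCTt
Col4a3, chr1:82720622-82720643, plus strand: ggaagtggacgtgaTGGTGCTg
Col4a3, chr1:82720646-82720667, plus strand: acttaagttcaggcTGGTGCTg
Col4a3, chr1:82721210-82721231, plus strand: tttcactactagacTGGTGCTg
Col4a3, chr1:82721692-82721713, plus strand: gtttgtttcaatttTGGTGCTt
Col4a5, chrX:141688239-141688260, plus strand: actgctcccaccaaTGGTGCTa
Col4a5, chrX:141688520-141688541, plus strand: agtattctttttcaTGGTGCTa
Col4a5, chrX:141688943-141688964, plus strand: aattcttattattcTGGTGCTa
Eln, chr5:134703736-134703757, minus strand: gacctcatcaacgtTGGTGCTa
Eln, chr5:134703489-134703510, minus strand: tctccaagggaaatTGGTGCTa
Eln, chr5:134703476-134703497, minus strand: ttggtgctacatgtTGGTGCTt
Of the 51 matches in matrix genes, 24 were followed by an A, the base that lengthens a match to 8 bases. All 3 matches of Col4a5 had this A, as did the single matches of Col1a1, Col3a1 and Col4a1, but neither match of Col4a2 did, nor any of the 4 matches of Col26a1 or the 4 of Col4a3. Col5a1, Col26a1 and Col4a3 held 4 matches each, the highest number among the 61 genes. Col1a2, the type I chain measured by PCR in the study, held no match to all 7 bases of the seed in its 3′ UTR of 882 bases. It held 2 matches of 6 bases, which pair with bases 2 to 7 of the microRNA. Whether an A follows these shorter matches is not given here. Igf1, the growth factor also measured by PCR and not a matrix gene, held 2 matches of 7 bases. A match is a run of letters and not a measured site of action.

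The counts below come from small RNA libraries, and how far they follow the amount of whole mRNA was not tested. The mean normalized counts of the matrix genes were low. They ran from 2.28 to 238, with a median of 9.27, and the median over all protein-coding rows was 6.77. A mean under 10 was found for 35 matrix genes (57.4%), against 63.5% of all protein-coding rows, and 1 matrix gene reached 100. The matrix genes made up 0.723% of the protein-coding rows and took 0.734% of their summed means. Longer genes can gather more reads, so levels are compared between genes only per length. The authors' means were divided by the kilobases of all annotated exons, and separately by the span of the gene with its introns. The medians of the matrix genes were 1.15 per kilobase of exon and 1.02 per 10 kilobases of span. Over all protein-coding rows these medians were 1.36 and 1.18. Of the 61 genes, 26 lay above the median of all rows per kilobase of exon and 27 per 10 kilobases of span.

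**Figure D2:**
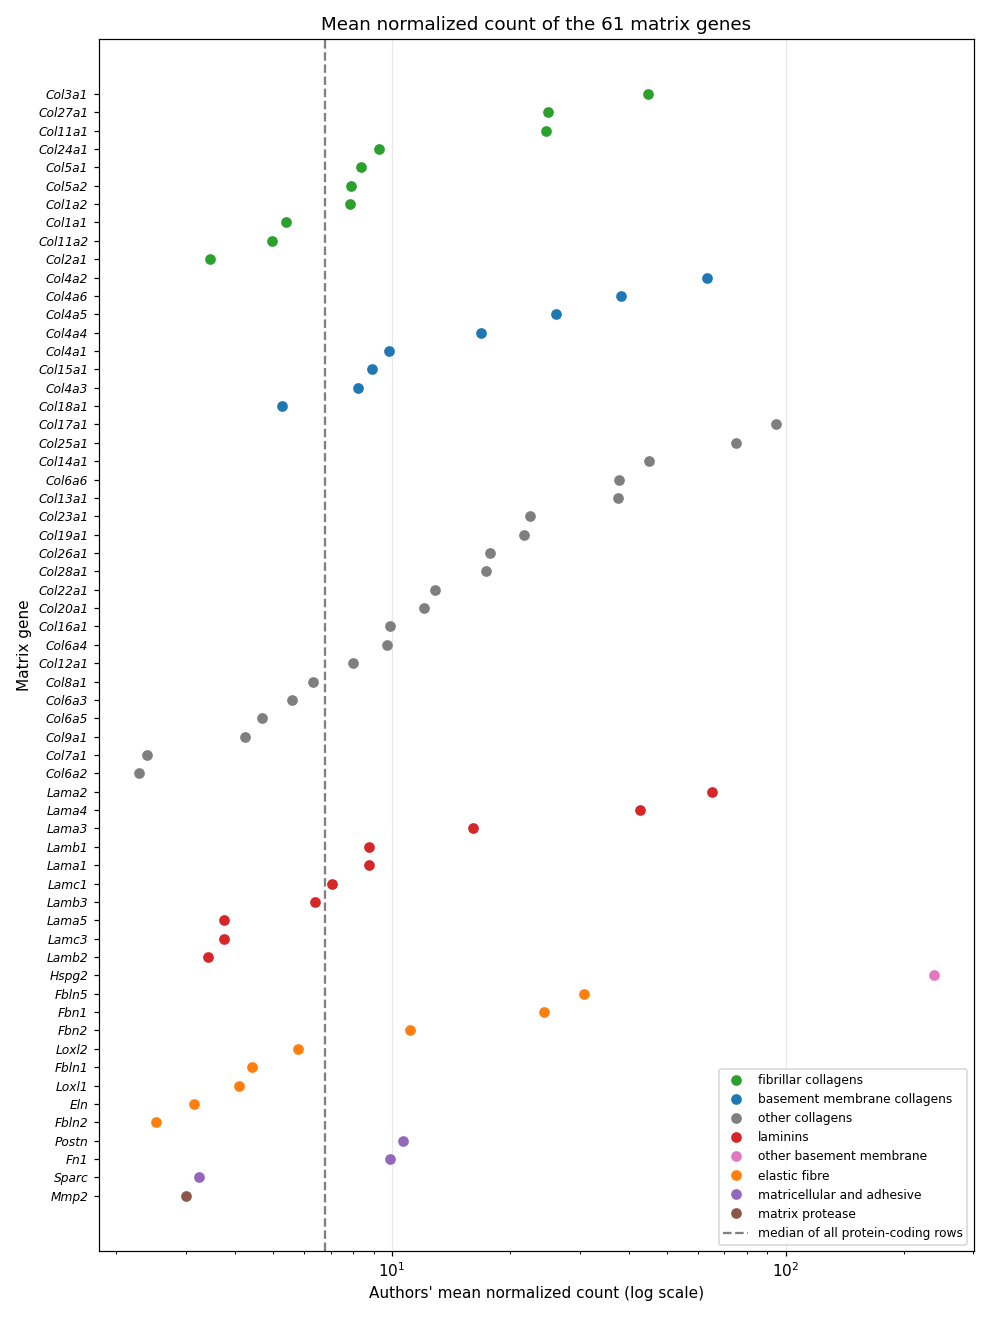
Authors' mean normalized count (horizontal axis, log scale) of each of the 61 matrix genes (vertical axis), coloured by gene list, with the median of all protein-coding rows as a dashed line. Each point is 1 mean with no error known, and 40 of the 61 points lie to the right of the line.

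Among the fibrillar collagens, 10 of 11 genes had a row and Col5a3 had none. Col3a1, the type III chain abundant in young and distensible tissue, had a mean normalized count of 44.8. The type I chains, which form the main collagen of the adult heart, had means of 5.40 for Col1a1 and 7.86 for Col1a2. A link of these values to age was not tested. Per kilobase of exon Col3a1 had 4.57, Col1a1 0.823 and Col1a2 0.633. Col3a1 thus stood above 84.2% of all protein-coding rows on that scale, and Col1a1 and Col1a2 above 29.8% and 19.9%. Per 10 kilobases of span, Col3a1 had 11.7, Col1a1 3.21 and Col1a2 2.14, above 94.2%, 81.4% and 72.5% of all rows. Col3a1 was the highest of the 3 genes on both scales. Col1a1 was above Col1a2 on both, but below it per kilobase of the longest transcript, at 0.911 against 1.47. The type I chains lay in the lower part of all rows on the first scale and in the upper part on the second. Values per 10 kilobases of span themselves fell with span. Their rank correlation with span was -0.50 over all protein-coding rows and -0.26 over the matrix genes. Col1a1, Col1a2 and Col3a1 span 16.8, 36.7 and 38.2 kilobases. An annotated miRNA gene with no row, Gm47302, overlaps an exon of Col3a1. The type V chains, which help to start collagen fibrils, had 0.984 (Col5a1) and 0.822 (Col5a2) per kilobase of exon. Col11a1 and Col2a1, known best from cartilage, had 1.93 and 0.374, and Col2a1 was the lowest fibrillar collagen on this scale. Col27a1 and Col24a1 had 1.92 and 1.22. Col11a2 had 0.723.

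Among the basement membrane collagens all 8 genes had a row. Type IV collagen is encoded by 3 pairs of neighbouring genes read in opposite directions. Col4a1 and Col4a2, the chains of nearly all basement membranes, start 21 bases apart on chromosome 8 in the annotation. Col4a1 had a mean normalized count of 9.87 and Col4a2 one of 63.1. Per kilobase of exon these values were 1.32 and 9.54, a ratio of 7.22, and per 10 kilobases of span the ratio was 5.37. Their annotations overlap on opposite strands only at these starts, from base 11312805 to base 11312826. The genes span 114 and 136 kilobases. Whether reads were counted by strand is not given in the sources used here. Col4a3 and Col4a4, chains of the kidney filter, start 72 bases apart and had 0.823 and 1.59 per kilobase of exon. Col4a5 and Col4a6, on the X chromosome, had 3.90 and 4.80. Per 10 kilobases of span the ratio of the second gene to the first was 2.00 for Col4a3 and Col4a4 and 1.01 for Col4a5 and Col4a6. No error is known for any of these ratios. Col15a1 had 1.41 per kilobase of exon and Col18a1, the source of endostatin, 0.753, the lowest of the list on each scale used.

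Perlecan, the heparan sulfate proteoglycan of basement membranes, had the highest mean of all 61 genes, also per kilobase of exon and per 10 kilobases of span. Per kilobase of the longest transcript it had 16.8, below Col17a1 at 16.9. Its gene, Hspg2 (chromosome 4), had a mean normalized count of 238, which was 18.5% of the sum over the matrix genes. It had 16.6 per kilobase of exon and 23.4 per 10 kilobases of span, above 96.6% and 97.0% of all protein-coding rows. Mir7018 lies in an intron of Hspg2 on the same strand and had no row. Nid1 and Nid2, the nidogens that link laminin to type IV collagen, also had no row.

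Of the laminins, 10 genes had a row. Laminins are trimers of an alpha, a beta and a gamma chain. Lama2 and Lama4, the alpha chains of muscle fibres and of vessels, had means of 65.1 and 42.7, and the highest values of the list per kilobase of exon, 3.99 and 3.54. Lama3, a chain of epithelia, had 1.49. Lamb1 and Lamc1, the most widely used beta and gamma chains, had 0.885 and 0.856, and Lama1 had 0.903. Lamb3, Lamc3, Lamb2 and Lama5 had 0.968, 0.616, 0.562 and 0.330. Per 10 kilobases of span the order was different, with Lamb2 at 3.17 and Lama4 at 2.95 above Lama2 at 1.02. Lamb2 spans only 10.8 kilobases and Lama2 spans 640 kilobases.

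The remaining collagens, 20 genes with a row of 25, took 34.9% of the sum over the matrix genes. Col17a1, a transmembrane collagen of epithelial anchoring structures, had a mean of 94.6 and was second to Hspg2 per kilobase of exon and per 10 kilobases of span, with 15.7 per kilobase of exon and 20.7 per 10 kilobases of span. Col13a1, another transmembrane collagen, had 8.16 per kilobase of exon. Col14a1, which binds to the surface of collagen fibrils, had 6.42. Col25a1, a transmembrane collagen studied in neurons, had 5.77. Col6a6 had 4.13, Col23a1 3.90, Col28a1 3.55 and Col19a1 3.15. At the other end of the exon scale, Col6a2 and Col6a3, chains of the microfibrils around muscle cells, had 0.274 and 0.466, and Col12a1 had 0.525. Col7a1, the anchoring fibril collagen of skin, was the lowest of all 61 genes on this scale at 0.232. Col6a5 and Col8a1 had 0.497 and 0.805. Between these ends lay Col20a1 (2.35), Col26a1 (2.17), Col16a1 (1.47), Col22a1 (1.40), Col6a4 (1.15) and Col9a1 (0.836). Part of this order was reversed per 10 kilobases of span. Col19a1 (0.667) and Col23a1 (0.762) lay below Col7a1 (0.763) and Col6a2 (0.819) there. Col6a6 (2.70), Col13a1 (2.67) and Col14a1 (2.11) stayed above them. Col6a1, Col8a2, Col9a2, Col9a3 and Col10a1 had no row.

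Of the elastic fibre genes, 8 of 9 had a row. Fbln5, a fibulin needed for elastic fibre assembly, had 4.46 per kilobase of exon and 4.25 per 10 kilobases of span. Fbn1, the main fibrillin of microfibrils, had 2.01 and 1.17 on these scales, and Fbn2, the fibrillin of developing tissue, had 0.842 and 0.551. Eln, which encodes elastin, had a mean normalized count of 3.15 and 0.389 per kilobase of exon, the lowest of the list on that scale. By mean and per 10 kilobases of span Fbln2 was lower, with 2.52 and 0.420 against 3.15 and 0.704 for Eln. The fibulins Fbln1 and Fbln2 had 1.01 and 0.396 per kilobase of exon. Of the enzymes that crosslink collagen and elastin, Loxl1 had 1.24 and Loxl2 1.07 on that scale, and Lox had no row. Mir6950 and the antisense gene Gm27177, which had a mean of 6.50, overlap exons of Loxl2.

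Postn, a matricellular protein of activated fibroblasts and valves, had a mean normalized count of 10.7 and 1.23 per kilobase of exon. On that scale Fn1, which encodes fibronectin, had 0.847 and Sparc, a collagen-binding glycoprotein, 0.855. Mmp2, a gelatinase that cleaves denatured collagen, had 0.893. Per kilobase of exon Postn and Fn1 lay above 45.9% and 31.0% of all protein-coding rows. Per 10 kilobases of span they had 3.57 and 1.46, above 83.1% and 60.0%. Sparc and Mmp2 had 1.13 and 1.15 per 10 kilobases of span. Bgn, Dcn and Lum, the small proteoglycans that coat collagen fibrils, had no row, 0 of 3.

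**Figure D3:**
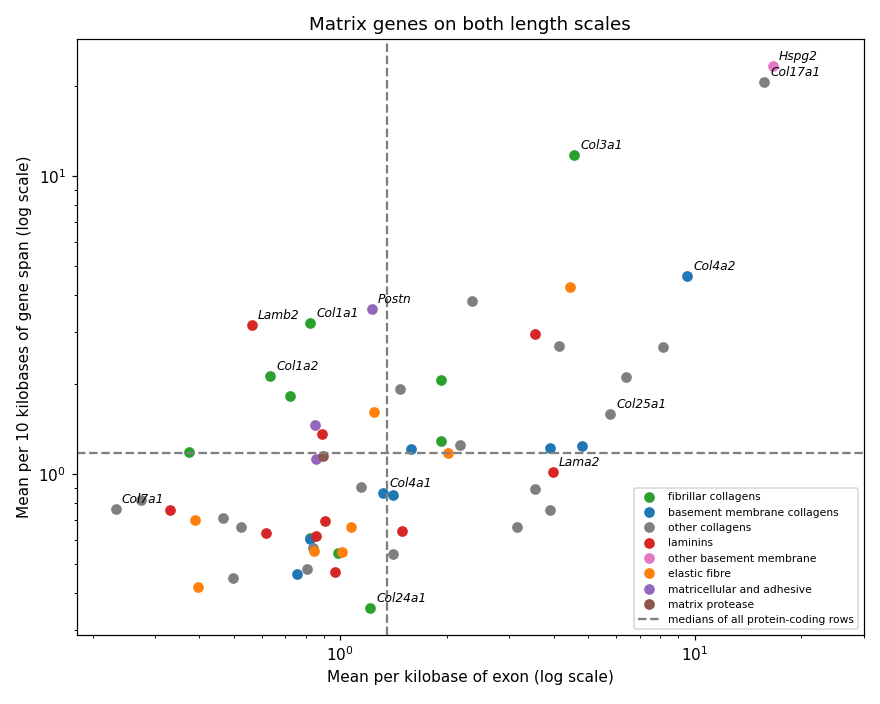
Mean per kilobase of exon (horizontal axis, log scale) against mean per 10 kilobases of gene span (vertical axis, log scale) for the 61 matrix genes, coloured by gene list, with the medians of all protein-coding rows as dashed lines. Hspg2 and Col17a1 sit at the upper right on both scales, while Col1a1, Col1a2 and Lamb2 lie left of the vertical line and above the horizontal line.

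The mean normalized count of a matrix gene went with the span of the gene on the chromosome. Spearman's rank correlation across the 61 genes was 0.64 with span and 0.28 with exon length, and across 8409 protein-coding rows it was 0.56 and 0.27. These are descriptions across genes of the same libraries, not replicates. All 35 matrix genes that span over 100 kilobases had a row. From 25 to 100 kilobases 24 of 30 had one (80.0%), and under 25 kilobases 2 of 9 (22.2%), Col1a1 and Lamb2. The shares among all annotated protein-coding genes were 98.1%, 66.4% and 13.1%. The median of the authors' means over the matrix genes was 16.8 for spans over 100 kilobases, 4.70 from 25 to 100 kilobases and 4.41 under 25 kilobases, against 17.2, 5.19 and 4.14 over all protein-coding rows. The 13 matrix genes with no row had a median span of 24.4 kilobases, with 74.7 kilobases the longest, and the 61 genes with a row one of 114 kilobases. The table does not say whether reads in introns were counted to the gene.

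**Figure D4:**
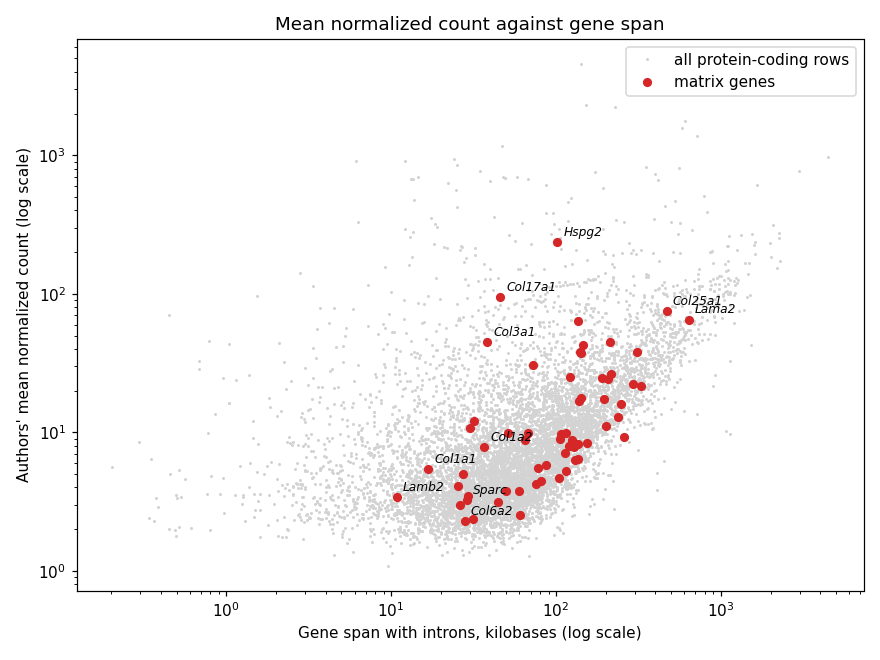
Authors' mean normalized count (vertical axis, log scale) against the span of the gene with introns in kilobases (horizontal axis, log scale) for the 61 matrix genes (red) and all protein-coding rows with an annotated span (grey). The means rise with span in both sets, and Hspg2, Col17a1 and Col3a1 lie above other matrix genes of like span.

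The means of the matrix genes with and without a seed match for miR-29 lay close together. The median of the authors' means was 9.10 for the 30 genes with a match and 9.76 for the 31 without. Per kilobase of exon these medians were 1.14 and 1.15. Over all protein-coding rows they were 1.07 for genes with a match and 1.42 for those without. The medians of the means themselves had the other order over all protein-coding rows, 7.07 with a match and 6.75 without. No error is known for these medians, and a difference between the genotypes was not tested.

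**Figure D5:**
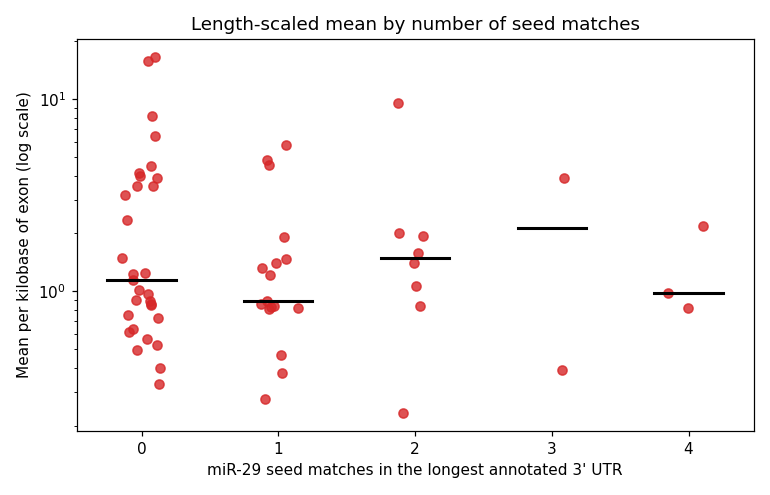
Mean per kilobase of exon (vertical axis, log scale) of the 61 matrix genes by their number of miR-29 seed matches in the 3′ UTR (horizontal axis, points spread sideways for clarity), with a bar at the median of each number. The medians are 1.15 for 0 matches, 0.893 for 1 match, 1.495 for 2, 2.15 for 3 and 0.984 for 4, from 31, 17, 8, 2 and 3 genes, with no steady rise or fall.

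Genes that make, bind or regulate the matrix were looked up as well. Of all annotated protein-coding genes, 98.1% had a row over 100 kilobases of span, 66.4% from 25 to 100 and 13.1% under 25. The counts with a row below are therefore not read as a trait of a list. Of 20 collagen-modifying enzymes 10 had a row, among them Adamts3 and Adamts2, which trim procollagen, with mean normalized counts of 22.8 and 20.4. These genes were the highest of the list per kilobase of exon, at 4.19 and 2.19. Per 10 kilobases of span they had 1.10 and 0.995, below P4hb, a subunit of collagen prolyl hydroxylase, at 2.39. Serpinh1, the collagen chaperone of fibroblasts, had no row and spans 7.86 kilobases. Of 18 matrix receptors 15 had a row, among them Itga9, an integrin chain, at 134 and Cd44, the hyaluronan receptor, at 52.5. Of 15 genes of the TGF-beta pathway, the main inducer of collagen genes, 12 had a row, with Smad4 at 75.7 and Ltbp1 at 39.4. Of 6 genes of matrix turnover 3 had a row, with Timp2 at 16.0 and Mmp14 at 7.14. These are means without scaling by length. Per 10 kilobases of span the integrin chain Itga3 (10.6) stood above Cd44 (5.80) and Itga9 (4.56), and Mmp14 (5.19) above Timp2 (2.93). Smad4 had 11.7 on that scale and Ltbp1 1.02, below Tgfb3 at 3.36. Igf1 had a mean of 3.49.

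Marker genes of heart cell types, blood, liver and lung were looked up. Of 7 cardiomyocyte markers 6 had a row, from Myl2 (mean normalized count 3.99) to Myh6 (425), a gene known to hold a cardiac miRNA, while Tnni3 had none. Fibroblast markers had a row in 3 of 5 cases (12.6 to 25.8), without Tcf21 and Thy1, endothelial markers in 4 of 4 (2.59 to 11.6) and smooth muscle and pericyte markers in 1 of 4 (Pdgfrb, 7.16). Blood markers had a row in 5 of 5 cases (2.45 to 7.93), and the liver and lung markers in 0 of 4. These ranges are means without scaling by length. Per 10 kilobases of span the globin genes Hba-a2 (59.9) and Hba-a1 (49.3) stood above Hspg2 (23.4). Hbb-bs (20.6), Hbb-bt (16.6) and Ptprc (0.703) lay below it. Per kilobase of exon Hba-a2 had 7.27 and Hba-a1 5.80, below Hspg2 at 16.6. Myh6 was higher than all these genes on both scales. The globin genes span at most 1.56 kilobases, and values per 10 kilobases of span fell with span. The liver and lung markers span at most 15.7 kilobases, and 13.1% of all annotated protein-coding genes under 25 kilobases had a row. Their lack of a row therefore cannot tell whether such tissue was present. The part of these cell types in the values of the matrix genes was not tested. Small RNA genes overlap 12 of the 61 matrix genes (19.7%), near the share of all protein-coding rows (18.4%). Of the 12 small RNA genes in the matrix genes, 1 had a row itself (Gm24631, in Col6a4, 4.63).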

How the data were processed

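Small RNA libraries of 3 ADAR2 knockout and 3 wild-type mouse hearts (postnatal day 6) were the source of the table. Per the labels and the methods, the authors clipped adaptors with Cutadapt, mapped with Bowtie and compared genotypes with DESeq. The methods also describe a mapping to mature microRNA sequences with NextGenMap, and name different sequencers and read lengths in different passages. The submitters' processing notes name mm9, and the versions, the annotation and the counting of reads with several matches are not given in the sources used here. The signal used is the authors' deposited mean normalized count, in DESeq tables the mean over samples of read counts scaled by library. The sources do not state which samples entered it. The 6 further columns (log2 fold changes with and without shrinkage, standard error, statistic and p-values of the authors' comparison) were not used, so no test was run.

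Rows were joined on their Ensembl gene identifiers with the GENCODE M21 annotation (GRCm38), where 10005 of 10065 identifiers were found and 60 were not. Coordinates, spans, exon lengths and 3′ UTRs are those of that annotation, and no coordinate of mm9 was used. A 3′ UTR is the transcript after its stop codon, the longest per gene. All 61 matrix genes had one. Sequences of 2 matrix genes with a row, Fbn2 and Lama3, are not shown. The members and lists were chosen with earlier results of these data known. Genes were named by list: the highest and lowest of each, both chains of types I and IV, and those with the most matches, and the other members were given as well. Functions were tested on simulated data. Python 3.11.15, numpy 2.4.6, pandas 2.3.3, scipy 1.17.1 and matplotlib 3.10.9 were used.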

Additional observations from a re-analysis of the deposited data

How the results depend on the processing

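The share of the protein-coding sum on matrix genes (0.734%) moved by less than 1.5 times without genes that overlap a small RNA gene (0.640%), without mitochondrial genes (0.735%) and, chosen after seeing the data, without Hspg2 (0.598%). The median of the means was 25.6 with a mean of at least 10, which keeps only the higher values by construction. The median per kilobase of exon was 3.73 with that filter and 0.102 per kilobase of span, where the length is larger by construction. Of the 10 highest genes per kilobase of exon, 5 were among the 10 highest per kilobase of span and 7 per kilobase of the longest transcript. The share of matrix genes with a miR-29 match was 31.1% for matches of 8 bases ending in A (3.72% of all protein-coding rows) and 67.2% for matches of 6 bases (2978 of 8282), which follows from the length searched. The rank correlation with span, chosen after seeing the data, was 0.64, and with exon length in its place 0.28. It was 0.66 without genes that overlap a small RNA gene and 0.66 without Hspg2. The table gives no symbols of its own, so matching by them could not be run.

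No paired analysis was possible because only means over samples were analysed. Leaving out each replicate could not be run for the same reason. Precision is unknown, and means under 10 limit 35 of the 61 matrix genes.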
